A study of Mus musculus with 12 samples.

Results

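Oxidative phosphorylation is carried out in the inner mitochondrial membrane. Complexes I to IV pass electrons from NADH and succinate to oxygen, and all but complex II pump protons. Complex V, the ATP synthase, uses the proton gradient to make ATP. Most of the subunits are encoded by nuclear genes, and the remainder by the mitochondrial genome, which is not covered here. The genes described are the nuclear ones whose symbols start with Nduf, Uqcr, Cox4 to Cox8 or Atp5, together with Sdha, Sdhb, Sdhc and Sdhd. Of 90 such genes with a probe set that carries no other symbol, 87 were among the 12309 genes tested. A gene was tested on its brightest probe set if the mean over 12 arrays reached 3.056 log2 signal, the 40th percentile of all probe sets. The 3 genes under this floor were Ndufb4 (mean 1.84), Cox7b2 (2.24) and Cox8c (1.59), and the dimmest gene above it was Ndufb1 (4.17). By role the 87 comprised 6 core and 27 accessory subunits of complex I, 8 complex I assembly factors (Ndufaf1 to Ndufaf8, which share the prefix but are not subunits), 4 subunits of complex II, 8 of complex III, 17 of complex IV and 17 of complex V. Ndufa4 and Ndufa4l2 were placed with complex IV, where the Ndufa4 protein is now known to reside, and so was Cox7a2l, a factor of respiratory supercomplexes.

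Total RNA of whole lung was measured on 12 arrays, 3 in each of 4 groups, from male C57BL/6 mice aged 8 to 12 weeks. Wild-type and nmMLCK-/- (knockout) animals either breathed spontaneously (SB) or were exposed to ventilator-induced lung injury (VILI) for 4 h. The knockout lacks nmMLCK, the long kinase isoform that non-muscle cells make from Mylk and that takes part in endothelial contraction and barrier loss. The sample labels give a tidal volume of 40 ml/kg at 65 breaths/min and a positive expiratory pressure of 0 cm H2O, whereas the series text gives 30 ml/kg. Ventilation at a protective volume was not among the groups, so the injurious volume cannot be told apart from ventilation itself. The labels do not say how the knockout line was bred or whether animals were pooled. The deposited values are log2 signals with array medians between 4.940 and 5.037, and they hold no read or molecule counts, so precision is set by the number of arrays. Over the 87 genes, a difference between groups of 3 arrays had a median standard error (SE) of 0.110.

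Some facts about the arrays touch the values below. The surfactant gene Sftpc, a marker of lung, had group means of 15.71 to 15.79 log2 signal. The 3 probe sets of Mylk overlapped between genotypes, with 4.52 to 5.51, 11.69 to 12.75 and 12.68 to 12.83 in the knockout against 4.67 to 6.70, 12.29 to 13.16 and 12.77 to 13.05 in wild type. No source says whether any of them lies in the deleted part, so they do not check the genotype labels. Neutrophil markers had a median deviation from each gene's mean over 12 arrays of 0.84 to 1.84 in the 6 VILI arrays and -2.17 to -1.27 in 5 SB arrays. The library labelled wild-type SB replicate 3 stood at 1.14, with the VILI arrays. This array and knockout SB replicate 2 carried the highest values of the respiratory genes. Counts and medians are also given without both, and so are the calls that were lost without them.

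The 5' flanks of the genes with the largest passing rise (Ndufaf4) and the largest passing fall (Ndufa6) are shown because both carry the same core motif of nuclear respiratory factor 1, a transcription factor known to bind promoters of respiratory chain genes. Each is the 250 bases before the RefSeq start of the gene in GRCm38.p6, Ndufaf4 at chr4:24897833-24898082 on the plus strand and Ndufa6 at chr15:82354292-82354541 on the minus strand, written 5' to 3' along the gene, with the motif TGCGCA in capitals.
Ndufaf4: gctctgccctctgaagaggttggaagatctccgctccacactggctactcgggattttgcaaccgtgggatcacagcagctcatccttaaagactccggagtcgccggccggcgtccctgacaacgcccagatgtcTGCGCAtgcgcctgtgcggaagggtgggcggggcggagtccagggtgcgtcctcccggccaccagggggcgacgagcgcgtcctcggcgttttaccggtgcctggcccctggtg
Ndufa6: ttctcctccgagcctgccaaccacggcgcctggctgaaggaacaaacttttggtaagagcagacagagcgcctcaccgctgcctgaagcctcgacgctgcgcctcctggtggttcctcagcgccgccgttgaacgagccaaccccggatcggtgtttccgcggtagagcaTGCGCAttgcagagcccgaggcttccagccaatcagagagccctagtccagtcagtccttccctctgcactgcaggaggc
The first base of the motif lay at -114 in Ndufaf4 and at -80 in Ndufa6, counting the last base before the start as -1. A further copy lay past the start of each gene, from +1 in Ndufaf4 and from +29 in Ndufa6.

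RefSeq promoter windows of 300 bases (250 before the start and 50 after) were found for 72 of the 87 genes and for 9928 of the genes tested. Both strands were searched, and overlaps between motifs were allowed. The nuclear respiratory factor 1 core TGCGCA was present in 17 of 72 windows (23.6%), against 15.4% of the windows of tested genes. The ETS core CCGGAAG, read by GABP, was present in 19 (26.4%, against 18.9%), and the YY1 core AAGATGG in 11 (15.3%, against 8.18%). At least 1 of these 3 was present in 38 windows (52.8%, against 36.1%). The estrogen-related receptor site AAGGTCA was found in 7 (9.72%, against 3.9%) and the E-box CACGTG in 6 (8.33%, against 11.6%). Of the 17 matched genes that fell on average over both genotypes (below), 6 held the nuclear respiratory factor 1 core, 2 the ETS core, 1 the YY1 core, 1 the receptor site and 0 the E-box. These letters describe the windows and were not tested against the expression values.

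Ventilation was compared with spontaneous breathing in each genotype, and the mean of the 2 differences gave the effect over both. Most respiratory chain genes were slightly lower after VILI. Over both genotypes the difference was negative in 71 of 87 genes (81.6%, against 56.5% of all tested genes). The median was -0.13 log2 signal (all tested genes -0.05). A gene is said to have risen or fallen where its limma p, adjusted by Benjamini-Hochberg over all 12309 genes, was under 0.05. By this rule 18 of the 87 fell (20.7%) and 1 rose (1.15%), against 22.6% and 14.1% of all tested genes. The share that fell was near the background, so the count itself is not particular to these genes. The changes were small, and the largest among the 19 was 1.56-fold.

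In wild type 2 of 87 genes fell (2.30%) and 1 rose (1.15%), where 9.03% and 6.34% of all tested genes did. The median difference was -0.08 (all genes -0.05), and 63 differences were negative (72.4%, all genes 56.6%). In the knockout 12 fell (13.8%) and 1 rose (1.15%), where 12.6% and 8.12% of all tested genes did. The knockout median was -0.20 (all genes -0.05), and 75 differences were negative (86.2%, all genes 56.1%). Every VILI array was below every SB array for 9 of 87 genes in wild type (all genes 20.5%) and for 39 of 87 in the knockout (44.8%, all genes 25.8%). Over both genotypes the 6 VILI arrays were all below the 6 SB arrays for 5 genes, Ndufa6, Ndufaf3, Ndufaf7, Ndufs7 and Sdha, where 10.4% of all genes were. They were all above for 1, Ndufaf4, where 7.45% of all genes were.

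The counts moved with the scaling. With array medians set equal, 14 of the 87 genes fell over both genotypes (16.1%, all genes 18.4%), with a median of -0.09 (all genes -0.01). In the knockout 8 then fell (9.20%, all genes 10.3%), with a median of -0.16 (all genes -0.02). In wild type the respiratory counts were the same, the median was -0.03 (all genes -0.00), and the split over all genes shifted from 1112 lower and 780 higher to 839 and 926. Under both scalings the shares that fell lay near those of all genes over both genotypes and in the knockout.

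**Figure D1:**
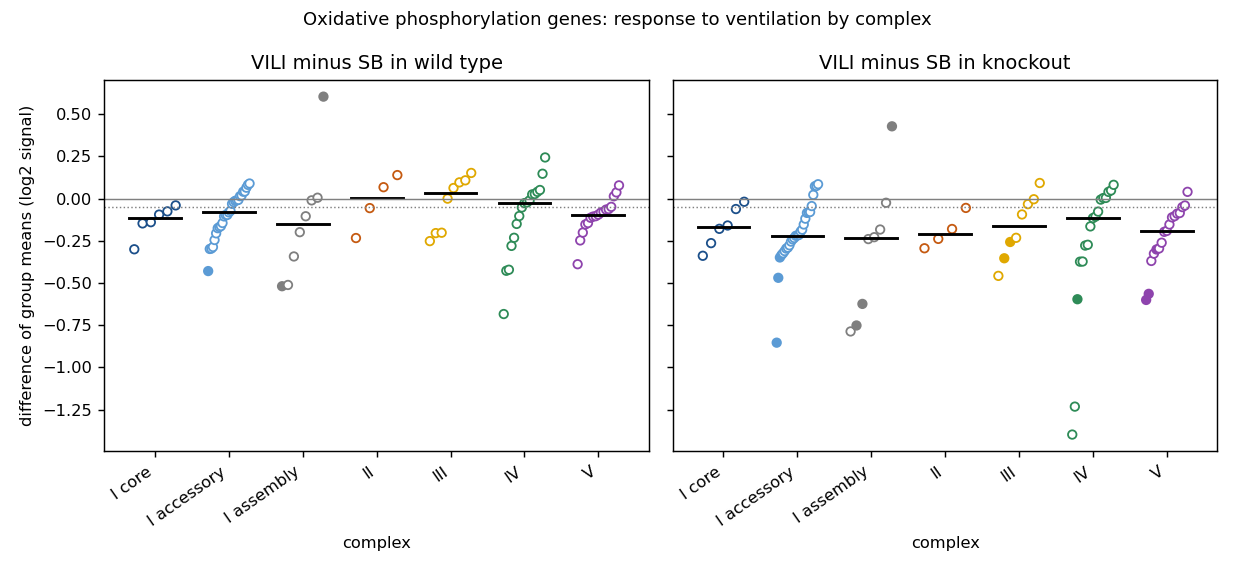
Difference of group means, VILI minus SB (log2 signal, 3 arrays a group), for each of the 87 genes by complex, in wild type (left) and in the knockout (right). Filled points passed the adjusted p threshold, black bars are medians of a complex and the dotted line is the median of all tested genes (-0.05 in both genotypes); the lowest points, Cox8b and Cox7a1 in the knockout, did not pass.

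Every complex had a negative median in the knockout. It ranged from -0.12 for complex IV to -0.23 for the assembly factors, with -0.17 for the core of complex I, -0.22 for its accessory subunits, -0.21 for complex II, -0.16 for complex III and -0.19 for complex V. In wild type the medians of complexes II, III and IV were 0.01, 0.03 and -0.03, and those of the complex I core, its accessory subunits, the assembly factors and complex V were -0.12, -0.08, -0.15 and -0.10. The differences between complexes were not tested.

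Single arrays contributed unequally to these medians. The median deviation of the 87 genes from each gene's own mean was 0.02, -0.06 and 0.18 in the wild-type SB arrays and 0.05, -0.02 and -0.13 in the wild-type VILI arrays. It was 0.06, 0.21 and -0.00 in the knockout SB arrays and -0.09, -0.13 and -0.07 in the knockout VILI arrays. The wild-type groups therefore overlapped, the knockout groups did not, and the highest values lay in replicate 3 of wild-type SB and replicate 2 of knockout SB. Without these 2 arrays the median difference was -0.07 over both genotypes (all genes -0.04), -0.03 in wild type (-0.02) and -0.14 in the knockout (-0.04). Then 12 of 87 genes fell over both genotypes (13.8%, against 20.3% of all genes) and 8 in the knockout (9.20%, against 11.3%). Over both genotypes 2 then rose, where 14.5% of all genes did, Ndufaf4 and, at 0.18, Ndufaf8 (limma adjusted p = 0.043). In the knockout the calls of Ndufs5, Ndufa8, Uqcrc2 and Uqcrh were lost without the 2 arrays (adjusted p = 0.0792, 0.0882, 0.0551 and 0.136).

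**Figure D2:**
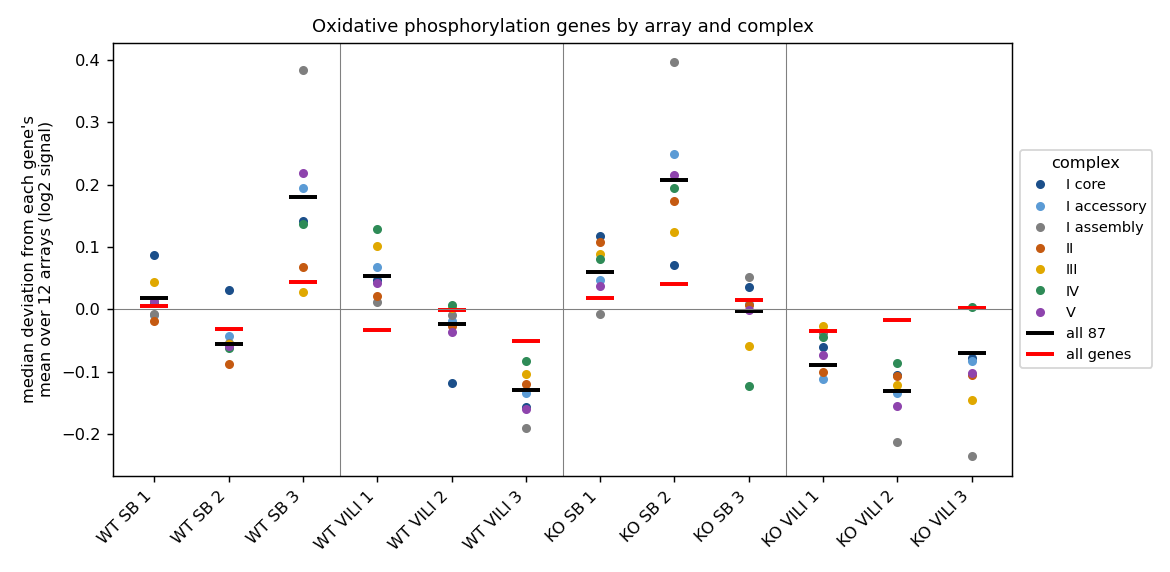
Median deviation of the genes of each complex from their own mean over 12 arrays (log2 signal), for every array; black bars show all 87 genes and red bars all tested genes. Replicate 3 of wild-type SB (0.18) and replicate 2 of knockout SB (0.21) lie highest, and the 3 knockout VILI arrays lie at -0.13 to -0.07.

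Markers of some other cells moved between the same groups, and those of others changed little. Over both genotypes 9 of 10 neutrophil markers rose (median 2.55), 7 of 9 ciliated cell markers fell (median -0.56) and 5 of 10 endothelial markers fell while 1 rose (median -0.40). Of all tested genes 14.1% rose and 22.6% fell (median -0.05). The medians were -0.02 for alveolar type 2, -0.05 for alveolar type 1, -0.05 for club cell and 0.19 for alveolar macrophage markers. The endothelial median deviation was 0.12 to 0.31 in SB arrays and -0.31 to -0.09 in VILI arrays, and the ciliated one 0.10 to 0.49 and -0.50 to -0.14. In bulk lung RNA, fewer cells of a type and less RNA per cell cannot be told apart, and the part of these cells in the differences of the respiratory genes was not tested.

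The assembly factors of complex I held the only rise over both genotypes and 3 of the falls. Of all tested genes 14.1% rose and 22.6% fell. Ndufaf4 acts early in the building of complex I. Its log2 signal was 9.65, 9.71 and 9.84 in wild-type SB arrays and 10.26, 10.39 and 10.36 in wild-type VILI arrays. It was 9.87, 9.94 and 9.79 in knockout SB arrays and 10.35, 10.36 and 10.17 in knockout VILI arrays. All 6 VILI arrays were above all 6 SB arrays. The difference was 0.60 ± 0.09 (SE) in wild type (limma adjusted p = 0.00241), 0.43 ± 0.09 in the knockout (adjusted p = 0.01) and 0.52 ± 0.06 over both (adjusted p = 0.000294). A second probe set of Ndufaf4 differed by 0.33 over both genotypes.

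Ndufaf3, which is known to act together with Ndufaf4, moved the other way. Its signal was 9.30, 9.25 and 9.67 in wild-type SB arrays and 9.11, 8.90 and 8.68 in wild-type VILI arrays. In the other genotype it was 9.14, 9.53 and 9.34 in knockout SB arrays and 8.75, 8.60 and 8.40 in knockout VILI arrays. VILI arrays were lower throughout, by 0.75 ± 0.16 in the knockout (limma adjusted p = 0.0111), and the wild-type difference of -0.51 ± 0.16 did not pass (adjusted p = 0.0557). Over both genotypes Ndufaf3 fell by 0.63 ± 0.11 (adjusted p = 0.00221).

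Ndufaf7, a methyltransferase that modifies a core subunit of complex I, had 8.97, 8.82 and 9.16 in wild-type SB arrays and 8.53, 8.45 and 8.42 in wild-type VILI arrays. It had 8.98, 9.33 and 8.99 in knockout SB arrays and 8.67, 8.48 and 8.29 in knockout VILI arrays. It fell in both genotypes, by 0.52 ± 0.13 in wild type (limma adjusted p = 0.0274) and by 0.62 ± 0.13 in the knockout (adjusted p = 0.0113), without overlap of the groups. The wild-type call was lost in 5 of 12 fits that left out 1 array. Ndufaf5, a hydroxylase of the subunit Ndufs7, fell by 0.56 ± 0.20 over both genotypes (adjusted p = 0.0471), a call lost in 9 of 12 such fits and without the 2 high SB arrays (adjusted p = 0.128). It was also lost with array medians set equal (0.0636). The remaining 4 assembly factors did not pass, with differences over both genotypes of -0.19 (Ndufaf1), -0.12 (Ndufaf2), -0.17 (Ndufaf6) and -0.01 (Ndufaf8). The sign of Ndufaf8 turned without the 2 high SB arrays, as given above.

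**Figure D3:**
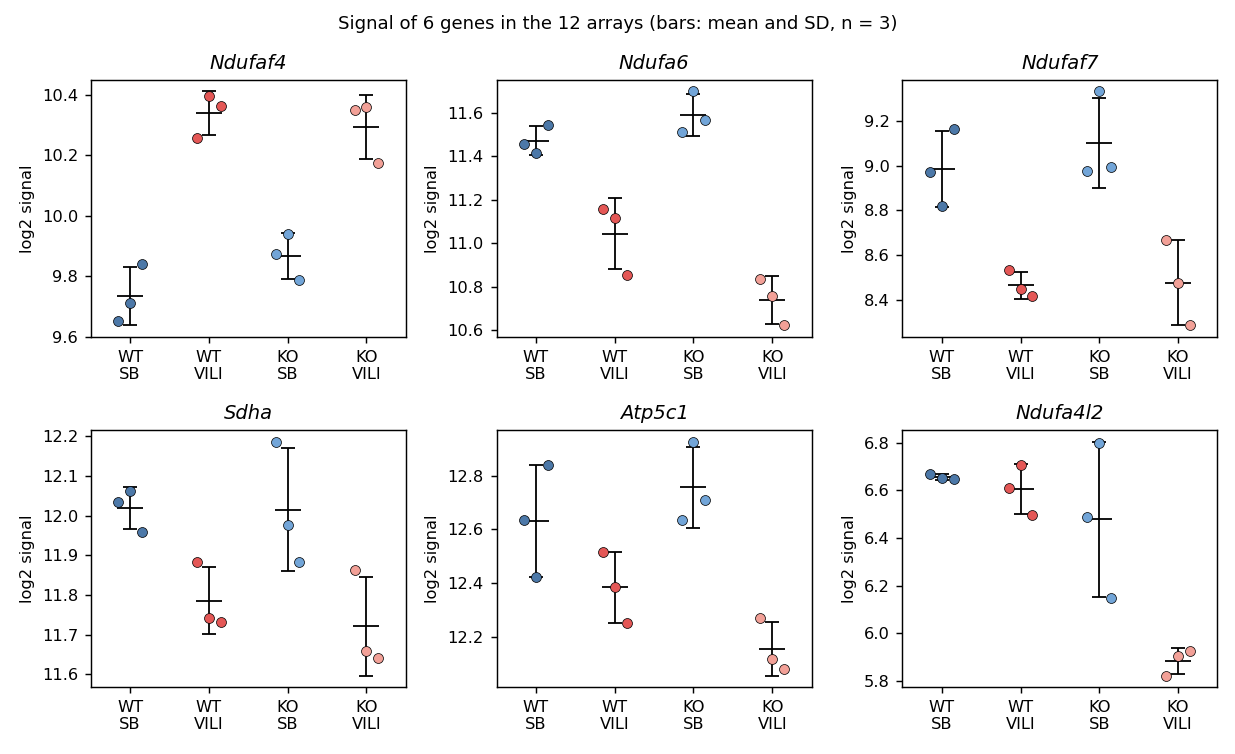
Log2 signal of 6 genes in the 12 arrays; points are arrays, bars are the mean and SD of 3 arrays, and each panel has its own axis. Ndufaf4 is higher in all VILI arrays, Ndufa6 and Ndufaf7 are lower in all of them, Sdha is lower with its groups almost touching, and Ndufa4l2 lies at 5.82 to 5.92 in the knockout VILI group alone.

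Among the subunits of complex I, Ndufa6 had the largest fall. It is an accessory subunit of the LYR family that holds the acyl carrier protein Ndufab1 in the complex. Its signal was 11.46, 11.41 and 11.54 in wild-type SB arrays and 11.16, 11.11 and 10.86 in wild-type VILI arrays. It was 11.51, 11.70 and 11.57 in knockout SB arrays and 10.84, 10.76 and 10.62 in knockout VILI arrays. Both VILI groups lay below both SB groups. The difference was -0.43 ± 0.10 in wild type (limma adjusted p = 0.021, lost in 3 of 12 fits without 1 array) and -0.85 ± 0.10 in the knockout (adjusted p = 0.00097). Over both it was -0.64 ± 0.07 (adjusted p = 0.000203), a 1.56-fold fall.

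Its partner Ndufab1, which also serves mitochondrial fatty acid synthesis, had 12.66, 12.56 and 12.85 in wild-type SB arrays and 12.70, 12.40 and 12.35 in wild-type VILI arrays. It had 12.60, 12.80 and 12.62 in knockout SB arrays and 12.28, 12.22 and 12.13 in knockout VILI arrays. The wild-type groups overlapped (-0.21 ± 0.12, limma adjusted p = 0.262), and in the knockout Ndufab1 fell by 0.47 ± 0.12 (adjusted p = 0.0205) with the groups apart. The knockout call was lost in 3 of 12 fits without 1 array, with an adjusted p of up to 0.0751. Over both genotypes Ndufab1 fell by 0.34 ± 0.08 (limma adjusted p = 0.0103), a call kept under every alternative. Dimmer probe sets past the floor (means 7.30, 5.96 and 3.08) differed by -0.94, -0.27 and -0.23 in wild type. In the knockout they differed by -0.85, -0.26 and -0.16.

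Only 1 of the 6 core subunits passed over both genotypes, where 22.6% of all tested genes fell and 14.1% rose. This was Ndufs7, which carries the last iron-sulphur cluster before ubiquinone. Its signal was 12.31, 12.40 and 12.63 in wild-type SB arrays and 12.29, 12.11 and 12.04 in wild-type VILI arrays. It was 12.54, 12.70 and 12.44 in knockout SB arrays and 12.16, 12.21 and 12.29 in knockout VILI arrays. The VILI arrays were lower in each genotype, by 0.32 ± 0.08 over both (limma adjusted p = 0.0101), and neither genotype passed on its own (adjusted p = 0.0927 in wild type and 0.0527 in the knockout). The other 5 core subunits, Ndufs1, Ndufs3, Ndufs8, Ndufv1 and Ndufv2, had differences over both genotypes between -0.03 and -0.17.

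Of the 27 accessory subunits 6 fell over both genotypes and 0 rose, where 22.6% and 14.1% of all tested genes did. Besides Ndufa6 and Ndufab1 these were Ndufa8, Ndufs5 and Ndufb10, which belong to the disulphide-linked proteins on the intermembrane side of the membrane arm, and Ndufa13, a subunit also known as GRIM-19. Ndufs5 had 11.70, 11.74 and 11.89 in wild-type SB arrays and 11.62, 11.40 and 11.42 in wild-type VILI arrays. It had 11.68, 11.87 and 11.61 in knockout SB arrays and 11.43, 11.32 and 11.41 in knockout VILI arrays. It fell by 0.32 ± 0.07 over both genotypes (limma adjusted p = 0.0062) and by 0.33 ± 0.10 in the knockout (adjusted p = 0.0367), and the wild-type value was -0.30 ± 0.10 (adjusted p = 0.0668). The knockout call of Ndufs5 was lost in 5 of 12 fits without 1 array, with array medians set equal (0.0629) and without the 2 high SB arrays. Ndufa8 fell by 0.30, Ndufb10 by 0.30 and Ndufa13 by 0.31. The calls of Ndufb10 and Ndufa13 were lost without the 2 high SB arrays (adjusted p = 0.0844 and 0.0739), and that of Ndufa8 was kept (0.0255). Those of Ndufb10 and Ndufa13 were also lost in 5 and 3 of 12 fits without 1 array. The 27 values ran from -0.64 to 0.09, and 23 of them were negative (85.2%, all genes 56.5%).

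Complex II is both succinate dehydrogenase of the citrate cycle and an entry point of electrons, and all its 4 subunits were measured. Sdha, the flavoprotein that oxidises succinate, had 12.03, 12.06 and 11.96 in wild-type SB arrays and 11.88, 11.74 and 11.73 in wild-type VILI arrays. It had 12.19, 11.98 and 11.88 in knockout SB arrays and 11.86, 11.66 and 11.64 in knockout VILI arrays. Every VILI array was below every SB array, though only just, since the highest VILI array and the lowest SB array both round to 11.88. Sdha fell by 0.26 ± 0.07 over both genotypes (limma adjusted p = 0.0162), while neither genotype passed alone (adjusted p = 0.145 and 0.0634).

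The iron-sulphur subunit Sdhb differed by -0.15 ± 0.07 over both genotypes (limma adjusted p = 0.105). The membrane anchors Sdhc and Sdhd differed by -0.06 ± 0.07 and 0.04 ± 0.09 (adjusted p = 0.523 and 0.731). Sdhb had 11.62, 11.49 and 11.78 in wild-type SB arrays and 11.66, 11.60 and 11.45 in wild-type VILI arrays. It had 11.60, 11.72 and 11.70 in knockout SB arrays and 11.47, 11.42 and 11.41 in knockout VILI arrays, so that its groups were apart in the knockout and overlapped in wild type. Sdhc ranged from 11.15 to 11.54 and Sdhd from 10.57 to 11.14 over the 12 arrays, and SB and VILI overlapped for both in wild type, and for Sdhd in the knockout. A dim probe set of Sdha (mean 5.27) differed by 0.36, opposite to the brightest, and another bright one (mean 11.43) by -0.33. With the mean of its probe sets Sdha differed by -0.08 over both genotypes, and the call was lost (limma adjusted p = 0.419).

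Complex III passes electrons from ubiquinol to cytochrome c. Of its 8 subunits 2 fell over both genotypes, where 22.6% of all tested genes did. They were Uqcrh, the hinge protein at cytochrome c1, and Uqcr11, a small subunit. Uqcrh had 12.92, 12.82 and 12.91 in wild-type SB arrays and 12.82, 12.67 and 12.54 in wild-type VILI arrays. It had 12.89, 12.98 and 12.61 in knockout SB arrays and 12.58, 12.41 and 12.43 in knockout VILI arrays. It fell by 0.28 ± 0.08 over both (limma adjusted p = 0.02) and by 0.35 ± 0.11 in the knockout (adjusted p = 0.0482). The knockout call was lost in 10 of 12 fits without 1 array, and the call over both was lost without the 2 high SB arrays (adjusted p = 0.0597) and with the mean of its probe sets (0.0629). Uqcr11 fell by 0.35 (adjusted p = 0.0273, and 0.0538 without those arrays), a call lost in 3 of 12 fits without 1 array.

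The core protein Uqcrc2 had 13.62, 13.64 and 13.60 in wild-type SB arrays and 13.70, 13.51 and 13.66 in wild-type VILI arrays. It had 13.76, 13.67 and 13.71 in knockout SB arrays and 13.45, 13.41 and 13.52 in knockout VILI arrays. Its wild-type difference was -0.00 ± 0.08 (limma adjusted p = 0.998), and in the knockout it fell by 0.26 ± 0.08 (adjusted p = 0.0394). That call was lost in 8 of 12 fits that left out 1 array. All 8 of these subunits of complex III had a lower response in the knockout than in wild type, as did 51.8% of all tested genes. The responses were lower by 0.00 to 0.26, and none of these differences passed.

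Complex IV, cytochrome c oxidase, hands the electrons to oxygen, and several of its subunits exist as isoforms for different tissues. Of its 17 genes 2 fell over both genotypes, where 22.6% of all tested genes did. They were Cox6b2, the isoform known from testis, and Ndufa4l2. Cox6b2 fell by 0.40 ± 0.14 (limma adjusted p = 0.0422), a call lost in 9 of 12 fits without 1 array and without the 2 high SB arrays (adjusted p = 0.111). It was also lost with array medians set equal (0.0722) and after quantile normalisation (0.0618). The widely expressed Cox6b1 differed by -0.13 ± 0.08 (adjusted p = 0.222). Cox4i2, the isoform known as enriched in lung, had signals of 5.56 to 5.82 in all 12 arrays and differed by 0.05 ± 0.06 (adjusted p = 0.539). Its widely expressed counterpart Cox4i1 differed by -0.13 ± 0.06 (adjusted p = 0.121). Cox7a2l differed by -0.28 ± 0.10 (adjusted p = 0.0534). The difference of Ndufa4 was 0.01.

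Ndufa4l2 is a paralogue of Ndufa4 known to be induced by hypoxia-inducible factor. Its signal was 6.67, 6.65 and 6.65 in wild-type SB arrays and 6.61, 6.71 and 6.50 in wild-type VILI arrays. It was 6.49, 6.80 and 6.15 in knockout SB arrays and 5.82, 5.90 and 5.92 in knockout VILI arrays. The 3 knockout VILI arrays lay below the other 9. The difference was -0.05 ± 0.14 in wild type (limma adjusted p = 0.828), and in the knockout Ndufa4l2 fell by 0.60 ± 0.14 (adjusted p = 0.016), a call lost in 1 of 12 fits without 1 array (0.0513). Over both genotypes Ndufa4l2 fell by 0.32 (adjusted p = 0.0265), which was lost in 4 of 12 such fits and with array medians set equal (0.0536). Under VILI the knockout was 0.72 ± 0.14 below wild type, which did not pass (adjusted p = 0.168) except without knockout SB replicate 2 (0.0477), alone or together with wild-type SB replicate 3 (0.0403). Over all alternatives this adjusted p ran from 0.0403 to 0.604. Of 7 markers of pericytes, a cell type known for Ndufa4l2, 1 fell in the knockout, where 12.6% of all tested genes did. The median of these markers was -0.12 (all genes -0.05), and their part in the values of Ndufa4l2 was not tested.

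The 3 isoforms of complex IV known from heart and skeletal muscle, Cox6a2, Cox7a1 and Cox8b, varied widely between arrays, and their differences within a genotype had SEs of 0.33, 0.54 and 0.62. Cox7a1 had 8.52, 8.41 and 8.69 in wild-type SB arrays and 8.97, 7.74 and 6.86 in wild-type VILI arrays. It had 9.59, 8.94 and 7.89 in knockout SB arrays and 7.10, 7.35 and 8.28 in knockout VILI arrays. Cox8b had 7.74, 7.52 and 7.95 in wild-type SB arrays and 8.58, 7.07 and 6.26 in wild-type VILI arrays. It had 9.75, 8.25 and 7.41 in knockout SB arrays and 6.96, 6.87 and 7.40 in knockout VILI arrays. SB and VILI overlapped in each genotype for Cox7a1, and for Cox8b they overlapped in wild type and were barely apart in the knockout. Over both genotypes the differences were -0.30 ± 0.23 for Cox6a2, -0.96 ± 0.38 for Cox7a1 and -0.91 ± 0.44 for Cox8b (limma adjusted p = 0.328, 0.0737 and 0.124).

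The heart muscle sleeve of the pulmonary veins is a known part of the mouse lung, and 10 cardiac markers, Myh6, Actc1 and Tnni3 among them, were read beside these isoforms. Across the 12 arrays the isoforms followed the median deviation of the markers, with Pearson's r = 0.968 for Cox6a2, 0.953 for Cox7a1 and 0.897 for Cox8b. Spearman's rho was 0.937, 0.937 and 0.916. The permutation p of r was 1e-05, 1e-05 and 2e-05 in 100000 resamples, of which 1e-05 is the smallest they can give, and 3e-05, 3e-05 and 4e-05 after Benjamini-Hochberg adjustment over 6 relations. Without the 2 arrays farthest from the median, wild-type VILI replicates 2 and 3, r was 0.951, 0.957 and 0.869. Within groups, after removal of each group's mean, r was 0.984, 0.966 and 0.909 (exact two-sided permutation within groups, p = 0.00772, 0.00617 and 0.00772, each 0.0154 adjusted). The counterparts expressed in all tissues, Cox6a1, Cox7a2 and Cox8a, had r = 0.125, 0.568 and 0.252, and permutation p = 0.698, 0.0529 and 0.432. The cardiac markers had negative differences in 10 of 10 genes in each genotype (medians -0.55 and -0.66), 1 of which fell over both. Over all tested genes 56.6% and 56.1% of differences were negative, and 22.6% of genes fell over both. The part of muscle cell number in the values of the 3 isoforms cannot be told apart from a change within the muscle cells.

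Cox7a1 and Cox8b are also known from brown fat. Of 6 brown fat markers listed, 3 were tested (Cidea, Fabp4 and Adipoq), and none was called in either genotype or over both, whereas Ucp1, Elovl3 and Plin1 were not among the genes tested. Fabp4 was also listed among the alveolar macrophage markers, so the 3 are not particular to brown fat. The median deviation of these 3 markers was 2.83 in knockout SB replicate 1 and 1.40 in wild-type VILI replicate 1, and it lay between -0.87 and 0.29 in the other 10 arrays. These were also the 2 arrays highest in Cox8b (9.75 and 8.58). Cidea, a lipid droplet protein, had 10.21 and 7.63 in them and 3.69 to 6.78 in the other 10. Without these 2 arrays, a choice made after seeing the data, r with the cardiac markers was 0.983 for Cox6a2, 0.929 for Cox7a1 and 0.902 for Cox8b (permutation p = 9e-05, 0.00033 and 0.0004 over 10 arrays). The sign for the counterpart Cox6a1 turned (-0.063). Of 9 skeletal muscle markers, 5 were tested and 1, Acta1, rose in each genotype, where 6.34% and 8.12% of all tested genes did. Acta1 differed by 2.12 in wild type and 3.05 in the knockout. Ckm went the other way, by -0.72 and -0.78, and did not pass. The medians of the list were 0.01 and 0.03. The correlations over 10 arrays do not measure the part of fat, since the 3 markers are not particular to brown fat. The part of fat and of skeletal muscle in the isoform values was not tested.

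**Figure D4:**
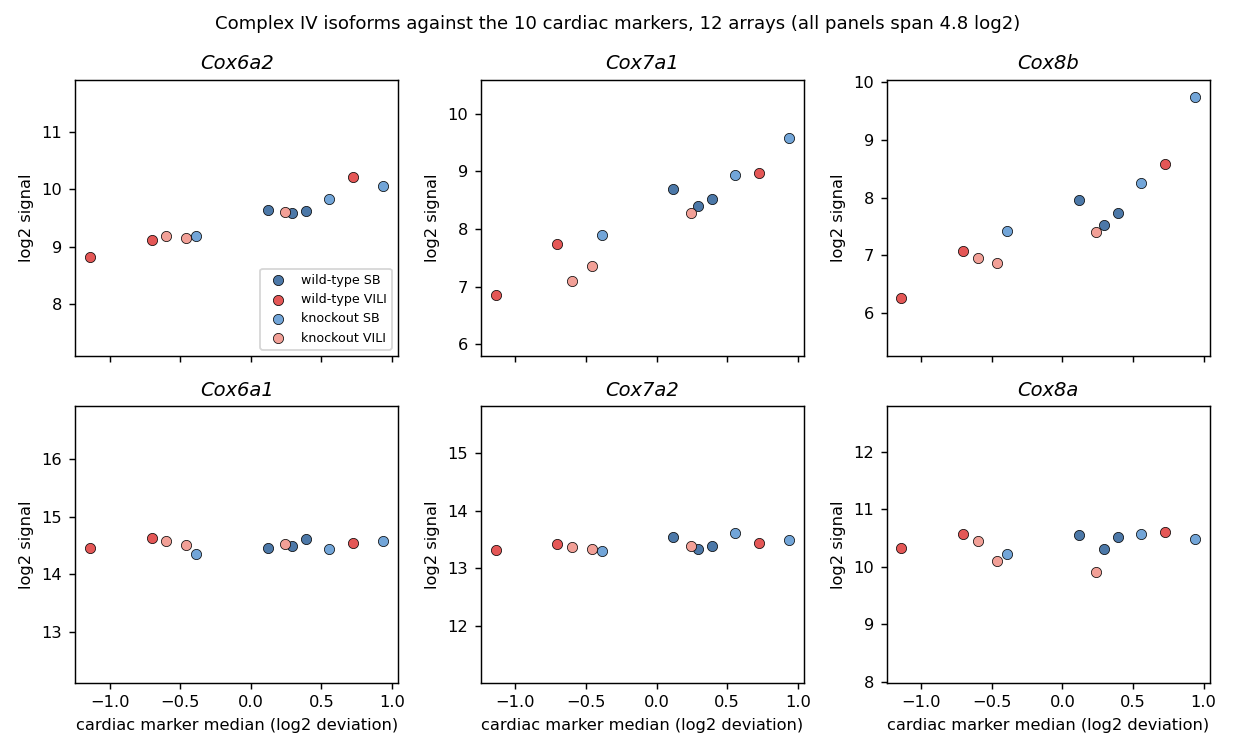
Log2 signal of 3 muscle isoforms of complex IV (top) and their widely expressed counterparts (bottom) against the median deviation of 10 cardiac markers, in 12 arrays coloured by group; every panel spans the same height. The muscle isoforms rise with the markers across the arrays (r = 0.897 to 0.968), and the counterparts vary little on this scale (r = 0.125 to 0.568).

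Complex V makes ATP, with a catalytic head, a central stalk and a ring of c subunits in the membrane. Of its 17 genes 3 fell over both genotypes and 0 rose, where 22.6% and 14.1% of all tested genes did. Of the 17 differences 16 were negative (94.1%, all genes 56.5%). Atp5c1, the gamma subunit of the stalk, had 12.64, 12.42 and 12.84 in wild-type SB arrays and 12.52, 12.38 and 12.25 in wild-type VILI arrays. It had 12.63, 12.93 and 12.71 in knockout SB arrays and 12.27, 12.12 and 12.08 in knockout VILI arrays. The wild-type groups overlapped, with a difference of -0.25 ± 0.13 (limma adjusted p = 0.21). In the knockout Atp5c1 fell by 0.60 ± 0.13 (adjusted p = 0.0105), with the groups apart. A dimmer probe set of Atp5c1 (mean 7.13) differed by 0.16 over both genotypes, and with the mean of its probe sets the calls were lost in the knockout (0.0783) and over both (0.104).

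Atp5g2 is 1 of 3 genes that encode the same mature c subunit. Its signal was 11.57, 11.58 and 11.91 in wild-type SB arrays and 11.44, 11.31 and 11.13 in wild-type VILI arrays. It was 11.38, 11.85 and 11.61 in knockout SB arrays and 11.19, 11.08 and 10.88 in knockout VILI arrays. The groups were apart in each genotype, and Atp5g2 fell by 0.48 ± 0.11 over both (limma adjusted p = 0.0063) and by 0.56 ± 0.15 in the knockout (adjusted p = 0.0255). Its dim probe set (mean 3.77) differed by 0.19, and with the mean of its probe sets both calls were lost (adjusted p = 0.171 over both and 0.341 in the knockout). The knockout call was also lost in 4 of 12 fits without 1 array. The sister genes Atp5g1 and Atp5g3 differed by -0.12 ± 0.11 and -0.05 ± 0.06 and did not pass (adjusted p = 0.423 and 0.486). Atp5b, the catalytic beta subunit, fell by 0.20 ± 0.06 over both genotypes (adjusted p = 0.0228) and by 0.30 ± 0.08 in the knockout (adjusted p = 0.0287). These calls were lost in 2 and 5 of 12 fits without 1 array, with adjusted p of up to 0.0556 and 0.0856.

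The genotypes were compared with each other at rest, under VILI, and in their response to it. The difference of responses, knockout minus wild type, was negative in 73 of 87 genes (83.9%, against 51.8% of all tested genes). The median was -0.10 (all genes -0.01). Limma called 0 of 87 genes here, and 0% of all tested genes, so no gene was shown to respond differently. At an unadjusted p under 0.05 it counted 3 of 87 genes (3.45%) and 619 of 12309 (5.03%). The largest of these were Ndufa6 at -0.42 (95% interval -0.75 to -0.10) and Ndufa4l2 at -0.54 (-0.98 to -0.11). Uqcrc2 was at -0.26 (-0.50 to -0.02). The muscle isoform Cox8b had an estimate of -0.97 with an interval of -2.90 to 0.96, which includes 0.

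Under spontaneous breathing 0 of 87 genes passed between genotypes by limma, where 0.0487% of all genes did, and 0 had an unadjusted p under 0.05. The median difference, knockout minus wild type, was 0.03 (all genes 0.02). The smallest p among the 87 belonged to Sdhc, which had 0.19 ± 0.09. Under VILI 0 of 87 passed, where 0.106% of all genes did, and 6 (6.90%) had an unadjusted p under 0.05, as did 1070 of 12309 (8.69%). All 6 were lower in the knockout, as were 4.02% of all genes. The median was -0.06 (all genes 0.01). Ndufa6 differed by -0.30 ± 0.10, Ndufab1 by -0.27 ± 0.12, Atp5b by -0.20 ± 0.08 and Cox8a by -0.35 ± 0.15 (limma adjusted p = 0.449, 0.549, 0.532 and 0.56).

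**Figure D5:**
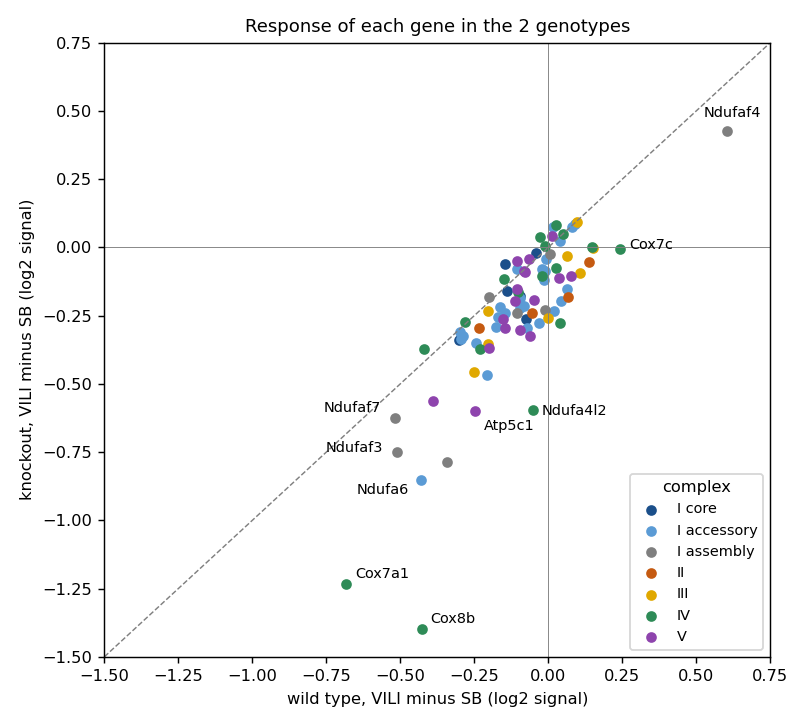
Response of each of the 87 genes, VILI minus SB (log2 signal), in wild type (horizontal) against the knockout (vertical), coloured by complex, with the line of equal responses dashed. Of the 87 points 73 lie below the line (83.9%, against 51.8% of all tested genes), and no gene's difference between genotypes passed the threshold.

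Genes that act beside the complexes were read from lists, whose counts stand against 22.6% of all tested genes that fell and 14.1% that rose over both genotypes, with a median of -0.05. These counts and values were not recomputed without the 2 high SB arrays. Of 36 tested assembly factors outside the named prefixes, 12 fell and 3 rose over both genotypes, with a median of -0.17. The median deviation of these 36 was 0.25 in wild-type SB replicate 3 and 0.31 in knockout SB replicate 2. It was -0.04 to 0.05 in the other SB arrays. Surf1 and Sco1, which both serve the assembly of complex IV, moved in opposite directions (-0.62 ± 0.07 and 0.83 ± 0.07). Tmem126b, a complex I assembly factor, fell by 0.94 ± 0.15 and Sdhaf4, a complex II assembly factor, by 0.83 ± 0.14.

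Of 18 genes for electron carriers, their synthesis and mitochondrial transport, 9 fell and 1 rose (median -0.25). Besides carriers of adenine nucleotides this list held Slc25a3, Vdac1, Vdac2, Vdac3 and Nnt. It also held Cyc1, the cytochrome c1 of complex III, whose symbol lies outside the named prefixes. Coq3 and Coq5, enzymes of ubiquinone synthesis, fell by 0.61 ± 0.11 and 0.46 ± 0.09, and Etfa and Etfb, the electron transfer flavoprotein, by 0.39 ± 0.08 and 0.38 ± 0.08. Of 16 genes of the citrate cycle and pyruvate dehydrogenase 3 fell and 0 rose (median -0.09). They were Dlat, at -0.32 ± 0.07, and the isocitrate dehydrogenase subunits Idh3b and Idh3g, at -0.26 ± 0.06 and -0.25 ± 0.07.

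Regulators of mitochondrial biogenesis split, with 4 of 14 that fell and 3 that rose (median -0.14). Nrf1, which encodes nuclear respiratory factor 1, rose by 0.38 ± 0.09, and Yy1, which encodes YY1, fell by 0.46 ± 0.08. Tfb1m, a methyltransferase of mitochondrial ribosomal RNA, fell by 1.49 ± 0.25, and Polg2, an accessory subunit of the mitochondrial DNA polymerase, by 0.92 ± 0.16. Of 14 glycolysis genes 4 rose and 1 fell (median -0.01). Hexokinase 2 (Hk2) rose by 1.66 ± 0.19 and the glucose transporter Slc2a1 by 0.90 ± 0.11, and the phosphofructokinases Pfkp and Pfkm moved oppositely (0.37 ± 0.08 and -0.59 ± 0.18). All of these are differences over both genotypes with limma adjusted p under 0.05.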

How the data were processed

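Total RNA of 12 lungs was hybridised to Affymetrix arrays. The authors deposited normalised log2 signals for each array's probe sets. MAS5 and GCRMA are named in the submitters' processing notes, without roles, versions or a build, and these are not given in the sources used here.

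Of 45037 probe sets, 34945 carried 1 gene symbol, and the brightest past the floor stood for its gene. Limma 3.58.1 in R 4.3.3 fitted 4 group means (lmFit, eBayes) to 12309 genes, with Benjamini-Hochberg adjustment over all of them, and was tested on simulated data. The series text counts 3 animals a group, and no batch is named.

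Named genes are the passing members with the largest differences and non-overlapping groups, otherwise the 5 with the smallest p, together with complex II, the isoforms, the leading member of each complex and up to 4 genes of each neighbouring list; other passing genes were named after their values were seen. Members and lists were chosen with earlier results of these data known. Alternatives changed the filter, scaling, probe set summary, variance model, replicate block and arrays used.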

Additional observations from a re-analysis of the deposited data

How the results depend on the processing

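The counts of respiratory genes called were recomputed under 20 alternatives. Leaving out 1 array at a time, or both high SB arrays, gave 1 to 3 in wild type (3 with all arrays), 6 to 17 in the knockout (13), 12 to 25 over both genotypes (19), 0 to 1 between genotypes under VILI (0, the 1 being Ndufa4l2), and 0 at rest and for the difference of responses. In the same fits 7.58% to 17.9% of all genes were called in wild type, 10% to 26.8% in the knockout and 28.8% to 37.9% over both. The knockout count was 6 without knockout SB replicate 2, VILI replicate 2 or VILI replicate 3, and the count over both was 12 without wild-type VILI replicate 3 or knockout VILI replicate 2. The cause was not tested. With array medians set equal 9 genes were called in the knockout and 15 over both (all genes 19.2% and 35%). With a variance trend and robust fit these were 16 and 26 (all genes 21.3% and 37.1%). Same-numbered arrays did not deviate together throughout (correlations -0.628 to 0.398 over 18 pairs, 3 above 0.1). With 3 arrays a group, 2 of the SB arrays outlying, these values cannot decide whether the numbers pair arrays. Between arrays of different groups and numbers the correlations ran from -0.544 to 0.706. The highest was that of the 2 high SB arrays. The fit to all 12 arrays treated these 2 as independent, and the replicate block did not join them. Why they deviated together was not tested. With the replicate block 2, 9 and 16 genes were called in wild type, the knockout and over both (all genes 11.6%, 15.3% and 32%). The calls lost with it included Ndufaf7 in wild type (adjusted p = 0.0561) and Ndufs5 and Atp5g2 in the knockout (0.0718 and 0.0515). The median over both stayed between -0.166 and -0.074 when arrays were left out.

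Of the 19 genes called over both genotypes, 11 were called in every fit without 1 array and 8 under every alternative. For 78 results of named genes, a call was lost in 122 of 1553 values and gained in 14 that kept their sign. The sign turned in 19 of the values, all of results not called with all arrays. With the mean of all probe sets these were Ndufab1 between genotypes under VILI (0.035) and, over both genotypes, Sdhd (-0.020) and Cox6a1 (-0.020). With arrays left out they were Sdhd (-0.022 to 0.097), Cox7a2 (-0.107 to 0.002), Ndufa4 (-0.071 to 0.071), Ndufaf2 (-0.206 to 0.027), Ndufaf8 (-0.07 to 0.177, called at 0.177) and Ndufs3 (-0.092 to 0.002). With array medians set equal they were Ndufaf8 (0.031) and Ndufs3 (0.011). Without the 2 arrays highest in brown fat markers, added after seeing the data, the correlation of Cox6a1 with the cardiac markers was -0.063. With 3 arrays a group, differences near the standard error of 0.110 could not be resolved.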
